A study of Mus musculus with 48 samples.

Results

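Cxcl9, Cxcl10, Ccl3, Ccl4, Ccl5, Ccl6 and Ccl9 are interferon-linked and inflammatory chemokine genes, followed here over every group of a study of cultured mouse liver macrophages. They were chosen by symbol, each is measured by 1 probe set, and they are 7 of 19505 genes. The macrophages resident in the liver, Kupffer cells, were taken from BALB/c males with an F4/80 sort, and the blood of the same mice gave monocytes with a CD115 sort. After 1 day of first culture with MCSF, a growth factor that keeps macrophages alive, the cells were kept for 1 or 3 days with HGF (hepatocyte growth factor), with Ito cells (hepatic stellate cells), with CD146 cells (sinusoidal endothelial cells) or with MCSF as the control. Cell, addition and day give 16 groups of 3 arrays, 48 in all, and all groups share the strain, the sex and the first day with MCSF. The age of the mice, whether added cells were kept apart or removed before lysis, and whether MCSF stayed beside an addition are not stated in the labels. The titles call the replicates biological without naming animals, so p-values measure the spread between these samples.

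Chemokines are small secreted proteins that guide leukocytes by binding receptors on their surface. Cxcl9 and Cxcl10 bind Cxcr3, the receptor of activated T and NK cells. Cxcl9 is induced mainly by interferon gamma, and Cxcl10 by interferons of both types and by NF-kB, the transcription factor downstream of Toll-like and TNF receptors. Ccl3 and Ccl4 (macrophage inflammatory proteins) and Ccl5 (RANTES) are made by activated macrophages and lymphocytes. Ccl6 and Ccl9 are rodent CC chemokines of myeloid cells that signal through Ccr1. In the liver, such chemokines call in monocytes, neutrophils and lymphocytes after injury, and Kupffer cells are one of their sources.

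In the order of protein-coding genes of RefSeq's GRCm38.p6, the CC members stand side by side on chromosome 11 as Ccl5, Ccl9, Ccl6, Ccl3 and Ccl4, and Cxcl9 and Cxcl10 lie on chromosome 5 with Art3 between them. RefSeq promoter sequences matched 5 of the 7 members, all but Ccl4 and Ccl5. Those of Cxcl9 and Cxcl10 are shown because these neighbours parted in the data. Each is the 250 bases before the gene's start, on the minus strand of GRCm38.p6, at chr5:92328080-92328329 for Cxcl9 and chr5:92348890-92349139 for Cxcl10, with capitals where a searched motif matched.
Cxcl9: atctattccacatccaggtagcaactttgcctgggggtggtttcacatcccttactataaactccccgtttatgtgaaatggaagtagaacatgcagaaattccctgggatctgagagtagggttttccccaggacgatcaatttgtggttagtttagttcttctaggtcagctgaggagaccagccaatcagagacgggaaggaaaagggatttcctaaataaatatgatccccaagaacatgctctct
Cxcl10: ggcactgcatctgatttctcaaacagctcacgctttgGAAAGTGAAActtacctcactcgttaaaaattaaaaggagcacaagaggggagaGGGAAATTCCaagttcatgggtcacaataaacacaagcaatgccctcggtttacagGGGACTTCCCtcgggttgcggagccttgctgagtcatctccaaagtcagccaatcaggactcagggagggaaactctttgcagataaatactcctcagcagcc
The motifs, searched on both strands, were the ISRE core (GAAA and GAAA with a pair of any bases between them), bound by interferon regulatory factors, the GAS motif TTCNNNGAA, bound by STAT proteins, and the kappaB consensus of NF-kB. In Cxcl10 the first capitals are an ISRE core, 213 to 204 bases before the start. The others are kappaB matches at 159 to 150 and 103 to 94 bases before it, and no matches overlap. These letters were not found in the windows of Cxcl9, Ccl3 and Ccl6, and that of Ccl9 held 1 kappaB match, GGAAAGCCCC on the opposite strand. Of 32851 promoter windows of this length, 2.98% held the ISRE core, 7.02% the GAS motif and 3.9% the kappaB consensus.

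Levels are the deposited log2 signals, given per array or as mean ± SD (n = 3), and differences are in log2 units of group means ± the SE of limma. A level compares arrays for 1 gene, not genes with each other. Negative control probes averaged 5.18 to 6.02 per group, and a level under those of its group is called background. The highest deposited value is 19.93, and within 1 unit of it a difference may be understated. "Passed" means an adjusted p below 0.05 over all genes of the comparison, and genes are said to rise, fall or be higher or lower where they passed. Where the median difference of all genes exceeded 0.1 units, differences are given relative to that median, while the test is of the difference before it is taken off. Core macrophage genes averaged 14.52 to 16.96 per array. In the controls the Kupffer marker list averaged 8.19 to 9.15 in Kupffer and 6.48 to 6.74 in monocytic cells at day 1, but 8.22 to 8.63 and 8.93 to 9.70 at day 3, with the defining markers Clec4f and Cd163 background in all 4. The monocyte marker list goes against the labels: on both days every array of the Kupffer control stands above every array of the monocytic control. Apart from their groups stand 3 arrays: replicate 1 of the Kupffer control at day 1, replicate 2 of Kupffer cells with HGF at day 1, and replicate 3 of the monocytic control at day 3.

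**Figure D1:**
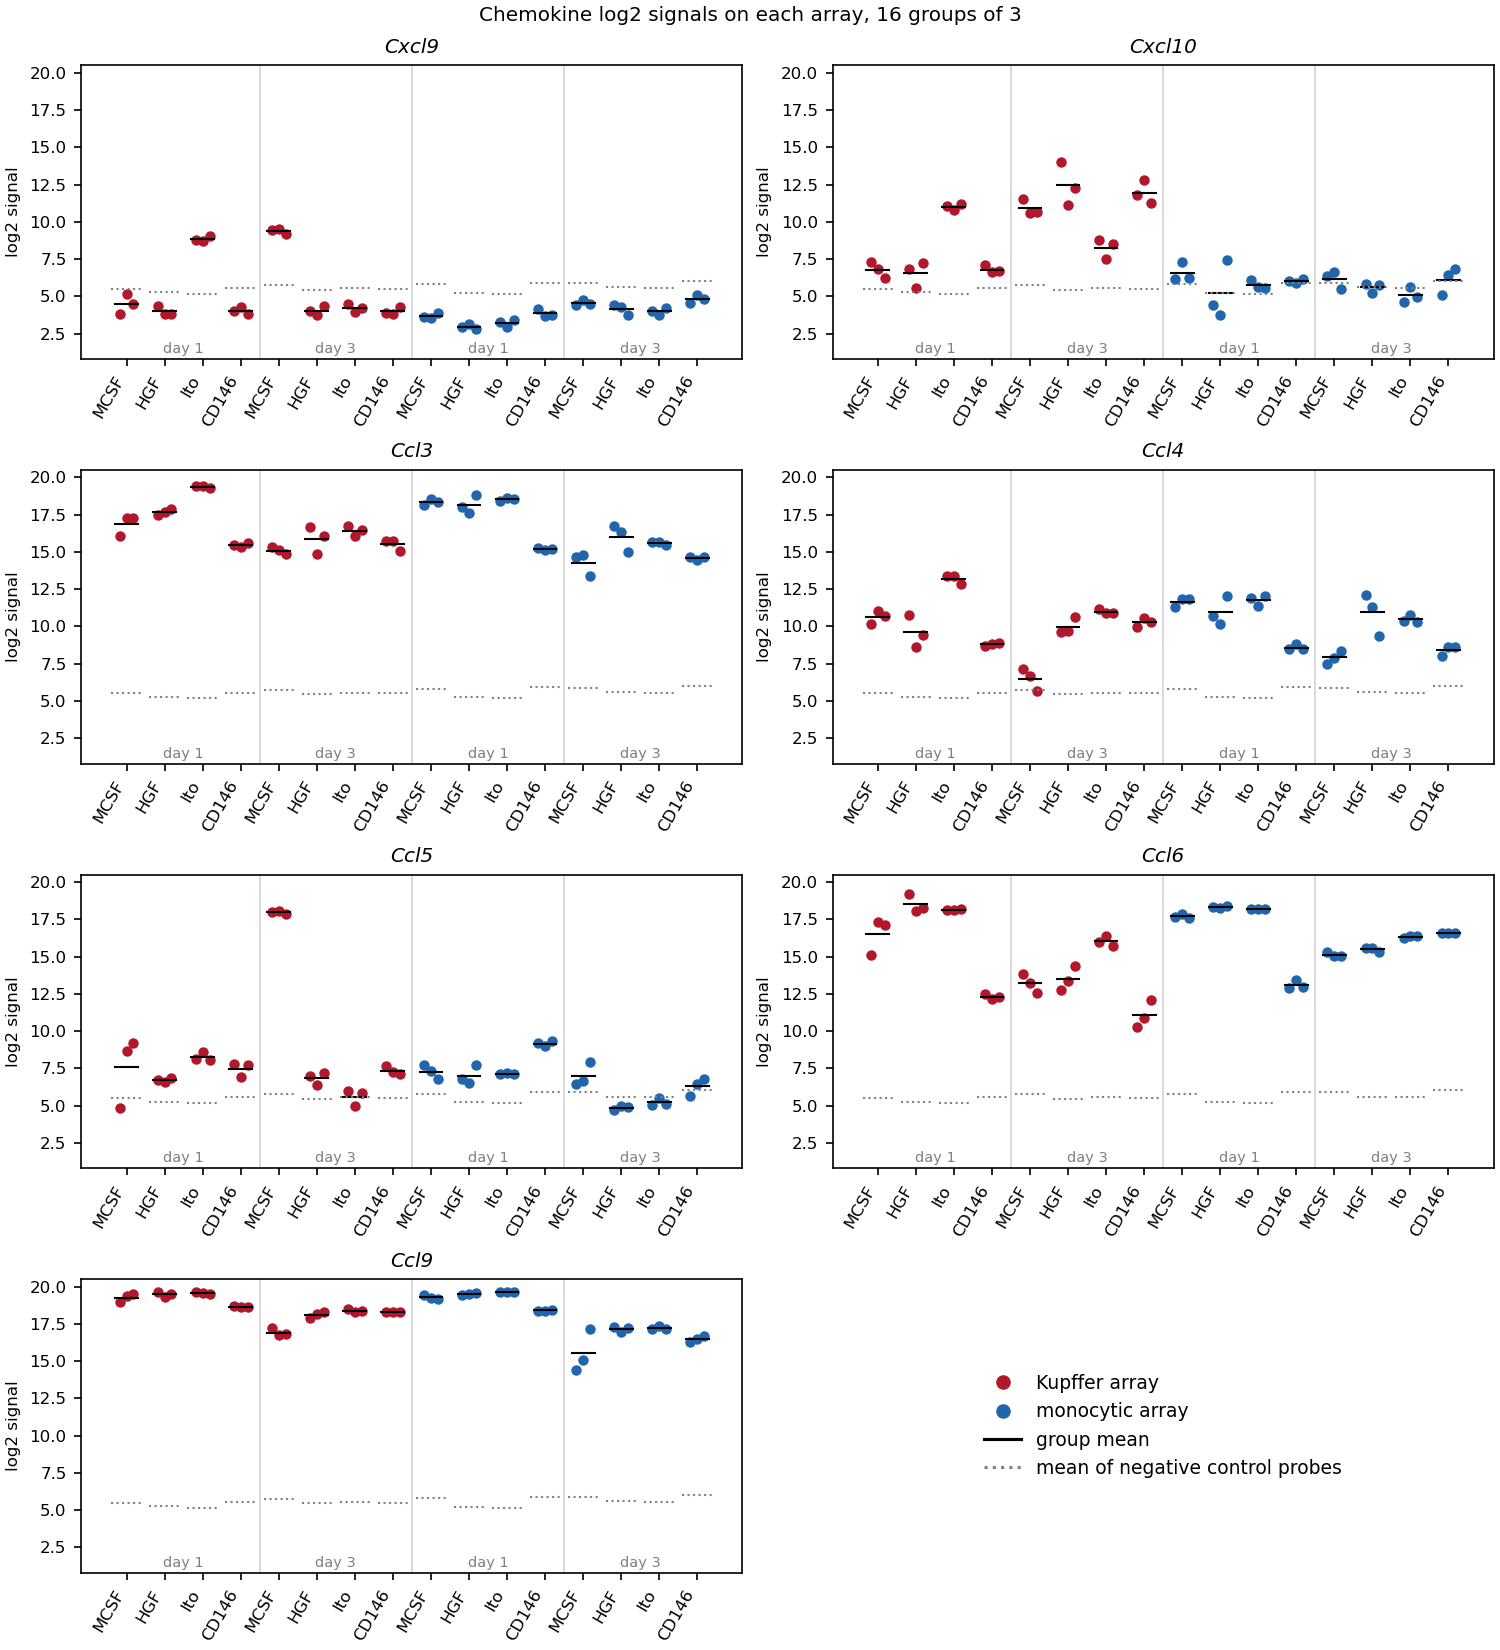
Log2 signals of the 7 chemokines (vertical axis) on each array of the 16 groups (horizontal axis); lines mark the group mean, and dotted lines the mean of negative control probes. Cxcl9 stands above the dotted line in Kupffer Ito day 1 and Kupffer MCSF day 3 only, and Ccl5 reaches 17.96 in Kupffer MCSF day 3 against 9.16 in the next group.

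Cxcl9 was above background in 2 of 16 groups and on 6 of 48 arrays. The Kupffer control of day 3 had 9.46, 9.55 and 9.21, and the Kupffer cells kept with Ito cells for 1 day had 8.80, 8.72 and 9.07. These groups do not overlap, and the other 14, including all 8 of monocytic cells, had background means of 2.97 to 4.81.

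Cxcl10 was high in 4 Kupffer groups, 2 of them the groups with Cxcl9. Its highest levels were 14.01, 11.14 and 12.28 in Kupffer HGF day 3, and 11.83, 12.78 and 11.24 in Kupffer CD146 day 3. Kupffer Ito day 1 had 11.08, 10.79 and 11.17, and the Kupffer control of day 3 had 11.54, 10.56 and 10.66. All pairs of these 4 groups overlapped, except Kupffer CD146 day 3 and Kupffer Ito day 1. Kupffer Ito day 3, at 8.75, 7.54 and 8.51, overlapped with neither of its neighbours. The other 11 groups, all 8 monocytic ones among them, had means of 5.06 to 6.80, and each overlapped with the next.

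Ccl5 set 1 group apart from all others. It was 17.98, 18.06 and 17.84 in the Kupffer control of day 3, and 9.18, 8.97 and 9.35 in the next group, monocytic CD146 day 1. The remaining 14 groups had means of 4.87 to 8.27, and the lowest 2, monocytic Ito and HGF at day 3, were background. The Kupffer control of day 1 was split, with 4.82, 8.68 and 9.17. Its low array, replicate 1, also had low B cell genes (list means of 4.19, 8.82 and 9.43 on the 3 arrays) and T and NK cell genes (4.18, 5.78 and 6.02), and the part of these cells in the split was not tested. In the Kupffer control of day 3, where Ccl5 was highest, 10 of 12 T and NK cell genes were background (Cd3e, Cd3d, Cd3g, Cd2, Ncr1, Klrb1c, Nkg7, Gzma, Gzmb and Prf1), and the list averaged 4.48 to 4.68. B cell genes averaged 4.78 to 4.92 there, with 2 of 7 above background. The part of these cells in the Ccl5 level of that group was not tested either.

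Ccl3 and Ccl4 were both highest in Kupffer Ito day 1. Ccl3 had 19.42, 19.39 and 19.29 there, near the top of the scale, and Ccl4 had 13.41, 13.41 and 12.82. For both genes these arrays stood above the next group, monocytic Ito day 1, without overlap. The lowest groups differed: Ccl3 was lowest in the monocytic control of day 3, at 14.68, 14.81 and 13.36, and Ccl4 in the Kupffer control of day 3, at 7.12, 6.70 and 5.66, where 1 of 3 arrays was background.

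Ccl6 had both extremes in Kupffer cells, 19.21, 18.07 and 18.28 with HGF at day 1 and 10.30, 10.89 and 12.09 with CD146 cells at day 3. The CD146 groups of day 1 were also low, at 12.49, 12.16 and 12.30 in Kupffer and 12.91, 13.43 and 12.98 in monocytic cells. Ccl9 had the narrowest range, 4.09 units between group means, and the MCSF, HGF and Ito groups of day 1 in both cells lay within 1 unit of the top of the scale. Its lowest group was the monocytic control of day 3, at 14.38, 15.07 and 17.17, where replicate 3 stood apart.

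Time in MCSF alone moved every chemokine in Kupffer cells: Ccl5, Cxcl9 and Cxcl10 rose from day 1 to day 3, and Ccl3, Ccl4, Ccl6 and Ccl9 fell. Thus 7 of 7 members passed, against 31.8% of all genes, around a median of 0.15. Relative to it, Ccl5 rose by 10.26 ± 0.54 (adjusted p = 9.87e-19), Cxcl9 by 4.79 ± 0.25 (adjusted p = 3.32e-19) and Cxcl10 by 3.99 ± 0.61 (adjusted p = 6.99e-07). Because Cxcl9 was background at day 1, its rise is at least 3.89 before the median is taken off. The differences of the others were -4.28 ± 0.46 for Ccl4, -3.46 ± 0.39 for Ccl6, -2.49 ± 0.31 for Ccl9 and -1.93 ± 0.37 for Ccl3 (adjusted p = 0.000214). The arrays of the days did not overlap for any of the 7 genes. Marker lists moved too. Neutrophil genes averaged 7.69 to 9.04 at day 1 (8 of 10 above background) and 5.52 to 5.74 at day 3 (2 of 10). Sinusoidal endothelial genes averaged 6.59 to 9.08 (7 of 10) and 3.90 to 3.97 (0 of 10), B cell genes 4.19 to 9.43 and 4.78 to 4.92, and core macrophage genes 14.52 to 15.90 and 16.66 to 16.96. Monocyte genes averaged 8.59 to 9.39 and 9.80 to 10.17, hepatocyte genes 5.84 to 7.66 (7 of 10) and 3.68 to 3.85 (0 of 10), Ito cell genes 5.12 to 5.59 and 6.78 to 7.11, and platelet genes 8.10 to 9.07 and 7.14 to 7.33. Their part in the chemokine changes was not tested. In RNA of mixed cells, fewer cells of a type and less RNA per cell cannot be told apart.

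In the monocytic control Ccl3, Ccl4, Ccl6 and Ccl9 fell too, while Ccl5 and Cxcl10 did not pass. The difference between the time courses of the cells was not tested. Here 5 of 7 members passed, against 29.3% of all genes, around a median of 0.13. Ccl3 went from 18.14, 18.54 and 18.38 to levels of 13.36 to 14.81, a difference of -4.20 ± 0.37 (adjusted p = 2.2e-11). The differences were -3.89 ± 0.31 for Ccl9, -3.86 ± 0.46 for Ccl4 and -2.69 ± 0.39 for Ccl6 (adjusted p = 1.58e-06). Cxcl10 differed by -0.51 ± 0.61 and Ccl5 by -0.40 ± 0.54. Cxcl9 passed with 0.75 ± 0.25, but it was background at both times, and the call was lost after median centring (0.55, adjusted p = 0.0873). Between the days, Kupffer cell genes averaged 6.48 to 6.74 (4 of 9 above background) and 8.93 to 9.70 (6 of 9), and Ito cell genes 4.62 to 4.75 (4 of 11) and 6.17 to 7.34 (6 of 11). Neutrophil genes averaged 6.79 to 6.84 and 5.44 to 5.51, and platelet genes 9.11 to 9.24 and 6.37 to 6.58. Their part in the falls was not tested.

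Set against monocytic cells at day 3, the Kupffer control had more Ccl5, Cxcl9, Cxcl10 and Ccl9 and less Ccl6 and Ccl4. Of the 7 members 6 passed, against 12.1% of all genes. Ccl5 differed by 10.95 ± 0.54 (17.96 ± 0.11 and 7.01 ± 0.78, adjusted p = 4.08e-19) and Cxcl10 by 4.74 ± 0.61 (10.92 ± 0.54 and 6.18 ± 0.58, adjusted p = 9.98e-08). Cxcl9 differed by 4.83 ± 0.25, at least 3.50 over the background of the monocytic arrays. Ccl6 differed by -1.93 ± 0.39 (adjusted p = 0.000289). Ccl3, at 15.09 ± 0.22 and 14.28 ± 0.80, did not pass (0.81 ± 0.37, adjusted p = 0.185), although its arrays did not overlap. The weaker calls did not hold under every single array left out. Ccl9 (1.38 ± 0.31, adjusted p = 0.00135) differed by 0.80 without monocytic replicate 1 (adjusted p = 0.0734) and by 2.19 without replicate 3. Ccl4 (-1.43 ± 0.46, adjusted p = 0.0349) was lost without replicate 2 or 3 of either group, with adjusted p of 0.0594 to 0.289. Monocyte genes averaged 9.80 to 10.17 in the Kupffer control (7 of 7 above background) and 7.08 to 7.96 in the monocytic control (5 of 7), and platelet genes 7.14 to 7.33 and 6.37 to 6.58. Their part in these differences was not tested.

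At day 1 the controls differed in 3 of 7 members, against 21.3% of all genes, and none of these calls held under every single array left out. Ccl3 was lower in Kupffer cells, with a difference of -1.48 ± 0.37 (16.88 ± 0.71 and 18.35 ± 0.20, adjusted p = 0.00363), with an adjusted p of 0.0682 without Kupffer replicate 1. Ccl6 (-1.17 ± 0.39, adjusted p = 0.0252) was -0.48 without that array and was lost also without monocytic replicate 1 or 2, with adjusted p of 0.0581 to 0.424. Cxcl9 (0.78 ± 0.25) passed between background values and was lost without Kupffer replicate 2 (0.43) or monocytic replicate 1 or 2. Ccl5 did not pass (0.28 ± 0.54), but differed by 1.65 without Kupffer replicate 1 (adjusted p = 0.00144). Monocyte genes averaged 8.59 to 9.39 in the Kupffer and 7.26 to 7.38 in the monocytic control, neutrophil genes 7.69 to 9.04 and 6.79 to 6.84, and sinusoidal endothelial genes 6.59 to 9.08 and 3.92 to 3.93. Hepatocyte genes averaged 5.84 to 7.66 and 3.70 to 3.86. Their part in these differences was not tested.

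At day 3, Kupffer cells with HGF, Ito or CD146 cells had lower Ccl5 and Cxcl9 and higher Ccl4 and Ccl9 than the MCSF control. These 3 comparisons share the MCSF control, so their likeness is not independent support. With HGF 4 of 7 members passed, against 27.6% of all genes, with Ito cells 7 of 7 against 26.8% (median 0.11), and with CD146 cells 5 of 7 against 26.4%. The calls of Cxcl10, Ccl3 and Ccl6 were not shared by all additions.

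Ccl5 had 6.99, 6.38 and 7.22 with HGF, 5.98, 4.98 and 5.87 with Ito cells and 7.65, 7.28 and 7.11 with CD146 cells. It was lower than in the control, at 17.84 to 18.06. The differences were -11.10 ± 0.54 with HGF, -12.46 ± 0.54 with Ito cells and -10.62 ± 0.54 with CD146 cells, with an adjusted p of 3.29e-19 or less. Cxcl9 was also lower, at background with every addition, with differences of -5.38 ± 0.25, -5.30 ± 0.25 and -5.39 ± 0.25 in the same order. Those differences are at least 3.95, 3.86 and 3.89 in size before a median is taken off. With HGF and CD146 cells the means at day 1 were 3.99 and 4.05 for Cxcl9 and 6.71 and 7.48 for Ccl5. At day 3 they were 4.03 and 4.02, and 6.86 and 7.34, while the control rose between the days. With Ito cells Cxcl9 had 8.87 at day 1 and 4.22 at day 3, and Ccl5 8.27 and 5.61. Changes between the days within an addition were not tested.

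Cxcl10, the other Cxcr3 ligand, fell with Ito cells, by 2.77 ± 0.61 (adjusted p = 0.000681). With HGF it was 1.56 ± 0.61 above the control, just short of the threshold (adjusted p = 0.0506). It passed without control replicate 1 (1.87, adjusted p = 0.0358) or HGF replicate 2 (2.23, adjusted p = 0.00756), and after quantile normalization (1.68). With CD146 cells the difference was 1.03 ± 0.61 (adjusted p = 0.246), and the groups overlapped.

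Ccl4 had 9.60, 9.67 and 10.60 with HGF, 11.19, 10.90 and 10.87 with Ito cells and 9.94, 10.56 and 10.30 with CD146 cells. All of these arrays stood above the control, and the rises were 3.47 ± 0.46 with HGF, 4.38 ± 0.46 with Ito cells and 3.77 ± 0.46 with CD146 cells. Ccl9 rose by 1.20 ± 0.31 with HGF (adjusted p = 0.00232), 1.35 ± 0.31 with Ito cells and 1.36 ± 0.31 with CD146 cells. Ccl3 rose with Ito cells by 1.23 ± 0.37 (adjusted p = 0.00541). It did not pass with CD146 cells (0.41 ± 0.37) or with HGF (0.77 ± 0.37, adjusted p = 0.133, and 0.0103 without HGF replicate 2). Ccl6 went in opposite directions: against a control of 13.81, 13.23 and 12.56, it rose with Ito cells to 15.99, 16.37 and 15.70 (by 2.71 ± 0.39) and fell with CD146 cells by 2.11 ± 0.39 (adjusted p = 2.82e-05), while with HGF it did not pass (0.29 ± 0.39).

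Marker lists moved with these comparisons. Core macrophage genes averaged 16.66 to 16.96 in the control and 14.55 to 15.07 with the additions. Kupffer cell genes averaged 8.22 to 8.63 in the control (6 of 9 above background), 8.45 to 9.02 with HGF, 7.68 to 7.82 with Ito cells and 6.44 to 6.70 with CD146 cells (4 of 9). Cholangiocyte genes averaged 3.78 to 3.84 in the control (0 of 5 above background), 8.16 to 8.90 with HGF, 6.39 to 7.19 with Ito cells and 7.21 to 7.65 with CD146 cells. Sinusoidal endothelial genes averaged 3.90 to 3.97 in the control (0 of 10), 5.78 to 6.56 with HGF, 5.02 to 5.15 with Ito cells and 4.89 to 4.94 with CD146 cells. Neutrophil genes averaged 5.52 to 5.74 in the control (2 of 10), 7.47 to 8.38 with HGF, 10.20 to 11.22 with Ito cells and 7.03 to 7.83 with CD146 cells (6 of 10 each). Hepatocyte genes averaged 3.68 to 3.85 in the control (0 of 10), 5.92 to 6.71 with HGF, 5.62 to 6.05 with Ito cells and 4.53 to 4.88 with CD146 cells. Platelet genes averaged 7.14 to 7.33, 6.54 to 6.64, 8.79 to 9.20 and 5.84 to 6.22 in the same order. The part of these cells in the chemokine changes was not tested.

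**Figure D2:**
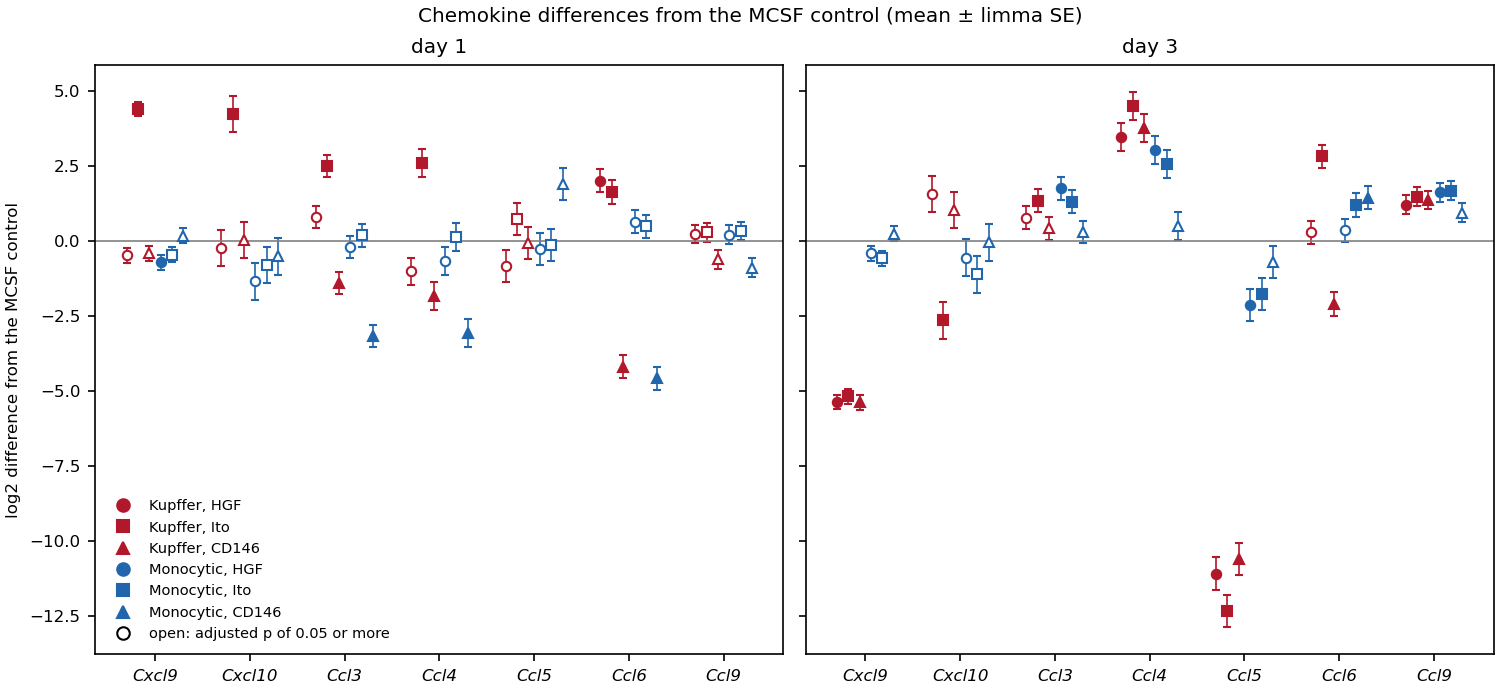
Log2 difference of each chemokine from the MCSF control of the same cell and day (vertical axis, mean ± SE of limma, before any median is taken off), with filled symbols where the adjusted p was below 0.05. In Kupffer cells at day 3, Ccl5 and Cxcl9 lie below 0 and Ccl4 above it with all 3 additions; among the comparisons of day 1, the Kupffer Ito symbols of Cxcl9, Cxcl10, Ccl3 and Ccl4 are the highest of their genes.

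At day 1, Ito cells were the addition that went with the widest rise of chemokines in Kupffer cells. Cxcl9, Cxcl10, Ccl3, Ccl4 and Ccl6 rose, and 5 of 7 members passed, against 23.5% of all genes, around a median of -0.24. Relative to it, Cxcl9 rose by 4.64 ± 0.25 (at least 3.35 before the median is taken off), Cxcl10 by 4.48 ± 0.61 (adjusted p = 1.88e-06), Ccl4 by 2.83 ± 0.46 (adjusted p = 7.25e-05) and Ccl3 by 2.73 ± 0.37 (adjusted p = 4.45e-06). The control arrays had 7.30, 6.81 and 6.22 for Cxcl10 and 10.18, 11.01 and 10.68 for Ccl4, all under the Ito arrays. The rise of Ccl6 (1.87 ± 0.39, adjusted p = 0.00196) rests on control replicate 1, which had the lowest of 15.12, 17.32 and 17.10. Without it the difference before the median was 0.93 (adjusted p = 0.0686). Ccl5 (0.96 ± 0.54) did not pass and turned with single control arrays: before the median it was -0.65 without replicate 1 (adjusted p = 0.232) and 1.52 without replicate 3 (adjusted p = 0.0333). Ccl9 (0.53 ± 0.31) was near the top of the scale in both groups.

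Marker lists moved here too. Kupffer cell genes averaged 5.92 to 6.19 in the Kupffer Ito arrays (5 of 9 above background) against 8.19 to 9.15 in the control, under the 6.48 to 6.74 of the monocytic control. Neutrophil genes averaged 10.72 to 10.90 (9 of 10 above background) against 7.69 to 9.04 in the control, and B cell genes 6.82 to 7.10 (7 of 7) against 4.19 to 9.43. T and NK cell genes averaged 5.19 to 5.35 against 4.18 to 6.02 in the control, with 7 of 12 and 6 of 12 above background. With Ito cells Cd3e, Cd3d, Cd3g, Cd4, Cd8a, Cd2 and Gzma were above background, and in the control the same genes except Gzma. Ncr1, Klrb1c, Nkg7, Gzmb and Prf1 were background in both. Sinusoidal endothelial genes averaged 5.27 to 5.45 against 6.59 to 9.08, and hepatocyte genes 5.29 to 5.47 against 5.84 to 7.66. Their part in the rise was not tested. Ito cell genes averaged 5.41 to 5.45 in the Kupffer Ito arrays (3 of 11 above background) against 5.12 to 5.59 in the control (5 of 11). Lrat, Des, Reln, Ngfr, Pdgfrb and Col3a1 were background in both, and Hgf, Acta2 and Dcn above it in both. Col1a1 and Col1a2 were above background in the control only.

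Monocytic cells did not share the Ito pattern of day 1. By limma 0 of 7 members passed, and 0 had an unadjusted p under 0.05, against 15.5% of all genes that passed. Relative to a median of -0.28, their differences ran from -0.53 ± 0.61 for Cxcl10 to 0.77 ± 0.39 for Ccl6. Tested against each other, the Kupffer response exceeded the monocytic one in 4 of 7 members, against 3.74% of all genes. The differences of responses were 4.86 ± 0.35 for Cxcl9, where 3 of the 4 groups were background, 5.05 ± 0.86 for Cxcl10 (adjusted p = 0.000225), 2.31 ± 0.53 for Ccl3 (adjusted p = 0.0069) and 2.47 ± 0.66 for Ccl4 (adjusted p = 0.024). For Ccl3 the monocytic control, at 18.35, stood too near the highest value of 19.93 for a rise as large as that in Kupffer cells. The Ccl3 test therefore cannot tell a smaller monocytic response from this limit. The Ccl4 call was lost after quantile normalization (adjusted p = 0.0542) and without any 1 of 5 arrays, with adjusted p of 0.0575 to 0.0748: Kupffer control replicate 1, Kupffer Ito replicates 1 and 2, and replicate 2 of monocytic control and monocytic Ito.

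CD146 cells at day 1 went with a fall of Ccl6, Ccl3 and Ccl4 in both cells. In monocytic cells 3 of 7 members passed, against 2.33% of all genes. Ccl6 had 12.91, 13.43 and 12.98 against 17.65, 17.85 and 17.56 in the control, a difference of -4.58 ± 0.39 (adjusted p = 4.5e-11). Ccl3 fell by 3.17 ± 0.37, to 15.27, 15.10 and 15.18 (adjusted p = 1.82e-07), and Ccl4 fell by 3.07 ± 0.46, to 8.48, 8.79 and 8.48 (adjusted p = 2.67e-05). For all 3 genes the CD146 arrays lay under the control arrays. Ccl5 was 1.89 ± 0.54 above the control, just short of the threshold (adjusted p = 0.0501), with no overlap of the arrays. The sinusoidal endothelial genes averaged 3.81 to 3.96 in the CD146 arrays, 9 of 10 of them background, against 3.92 to 3.93 in the control. Monocyte genes averaged 7.96 to 8.16 with CD146 cells (6 of 7 above background) against 7.26 to 7.38 (4 of 7), and their part in the falls was not tested.

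In Kupffer cells 3 of 7 members passed, against 3.78% of all genes. Ccl6 fell by 4.20 ± 0.39 (adjusted p = 4.14e-10), from 15.12, 17.32 and 17.10 to 12.49, 12.16 and 12.30. Ccl4 fell by 1.83 ± 0.46 (adjusted p = 0.0135), a call lost without control replicate 2 or CD146 replicate 1 (adjusted p of 0.0648 to 0.0746). Ccl3 fell by 1.41 ± 0.37 (adjusted p = 0.02), a call lost without control replicate 2 or 3 or CD146 replicate 1 or 2 (adjusted p of 0.0693 to 0.112). Ccl5 (-0.08 ± 0.54) was -1.45 without control replicate 1, whose Ccl5 was low (adjusted p = 0.00844). Between control and CD146 arrays, neutrophil genes averaged 7.69 to 9.04 and 10.50 to 10.60, B cell genes 4.19 to 9.43 and 4.85 to 5.03, and sinusoidal endothelial genes 6.59 to 9.08 and 5.24 to 5.43. Kupffer cell genes averaged 8.19 to 9.15 and 7.22 to 7.51, and monocyte genes 8.59 to 9.39 and 10.34 to 10.50. Their part in the falls was not tested.

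By limma 0 of 7 members differed between the cells in their CD146 response of day 1, against 0.877% of all genes, and 2 had an unadjusted p under 0.05. These were Ccl3 (1.76 ± 0.53, adjusted p = 0.136) and Ccl5 (-1.97 ± 0.76, adjusted p = 0.474), which was -3.34 without Kupffer control replicate 1 (adjusted p = 1.09e-05). For Ccl6, with the deepest fall in both, the difference of responses was 0.39 ± 0.55.

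With HGF at day 1, 1 of 7 members passed in Kupffer cells, a share near the 17.5% of all genes, and the count ran from 0 to 4 under the alternatives. Differences lay around a median of -0.17. Relative to it Ccl6 rose by 2.17 ± 0.39 (adjusted p = 0.000724), with no overlap of the arrays. The difference before the median was 1.31 without control replicate 1 (adjusted p = 0.00946), and the call was lost after quantile normalization (1.04, adjusted p = 0.0564). Ccl5 (-0.68 ± 0.54) passed without control replicate 1, at -2.22 before the median (adjusted p = 3.93e-05), and so did Cxcl9, between background values. Ccl4 (-0.85 ± 0.46) passed without HGF replicate 1 (adjusted p = 0.0126).

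In monocytic cells with HGF at day 1, 1 of 7 members passed, against 37.5% of all genes, around a median of -0.55. That was Cxcl9, background in both groups (-0.18 ± 0.25 relative to the median), and its call was lost after median centring (adjusted p = 0.837), after quantile normalization (adjusted p = 0.971) and without control replicate 3 or HGF replicate 3 (adjusted p of 0.0757 to 0.0863). Cxcl10 had 4.40, 3.77 and 7.45 and did not pass (-0.81 ± 0.61), but did without HGF replicate 3 (adjusted p = 0.00147). By limma 0 of 7 members differed between the cells in this response, against 23.1% of all genes, and 1 had an unadjusted p under 0.05, Ccl6 (1.37 ± 0.55 before a median of 0.36, adjusted p = 0.0629). Single arrays moved these calls: Ccl6 passed without Kupffer control replicate 2 or 3 or Kupffer HGF replicate 2 (adjusted p of 0.0201 to 0.0484). Before the median, Ccl5 passed without Kupffer control replicate 1 (-1.94, adjusted p = 0.00324) and Cxcl10 without monocytic HGF replicate 3 (2.23, adjusted p = 0.0312).

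In monocytic cells at day 3, HGF and Ito cells each went with more Ccl4, Ccl3 and Ccl9 and less Ccl5 than the MCSF control they share. With HGF 4 of 7 members passed, against 13% of all genes. Ccl4 had 12.13, 11.28 and 9.39 against 7.51, 7.89 and 8.36, a rise of 3.02 ± 0.46 (adjusted p = 9.58e-06). Ccl3 rose by 1.75 ± 0.37 (adjusted p = 0.00102). Ccl9 rose by 1.61 ± 0.31 (adjusted p = 0.000281), or by 1.03 without control replicate 1 and 2.43 without control replicate 3. Ccl5 fell by 2.14 ± 0.54, at least 1.41, to background (4.73, 4.99 and 4.88, adjusted p = 0.00527). Ito cell genes averaged 6.17 to 7.34 in the control (6 of 11 above background), 4.86 to 4.96 with HGF (3 of 11), 5.01 to 5.07 with Ito cells (3 of 11) and 5.42 to 5.68 with CD146 cells (4 of 11). Core macrophage genes averaged 16.33 to 16.45 in the control, 15.76 to 15.97 with HGF and 15.83 to 16.01 with Ito cells. Their part in the changes was not tested.

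With Ito cells 5 of 7 members passed in monocytic cells at day 3, against 12.5% of all genes. Ccl4 rose by 2.55 ± 0.46 (adjusted p = 0.000122), to 10.40, 10.76 and 10.27, above every control array. Ccl9 rose by 1.67 ± 0.31 (adjusted p = 0.000166), or by 1.09 without control replicate 1. The other calls did not hold under every single array left out: Ccl3 (1.31 ± 0.37) was 0.85 without control replicate 3 (adjusted p = 0.156). Ccl6 (1.19 ± 0.39) was lost without any 1 of the 6 arrays (adjusted p of 0.067 to 0.118), and Ccl5 (-1.78 ± 0.54) without control replicate 3 or Ito replicate 1 or 3 (adjusted p of 0.0717 to 0.134).

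CD146 cells moved 1 of 7 members in monocytic cells at day 3, against 2.4% of all genes. Ccl6 had 16.55, 16.60 and 16.56 against 15.30, 15.04 and 15.05 in the control, a rise of 1.44 ± 0.39 (adjusted p = 0.0325). The groups do not overlap, but the call was lost without any 1 of the 6 arrays, with adjusted p of 0.0501 to 0.103, and after median centring. Ccl9 (0.93 ± 0.31, adjusted p = 0.112) was 1.75 without control replicate 3 (adjusted p = 8.22e-08).

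The responses of the 2 cells at day 3 were tested against each other, with the same controls in all 3 tests. Ccl5 and Cxcl9 had a lower response in Kupffer cells with every addition. The monocytic control had 7.01 for Ccl5, near its negative controls (5.90), and 4.57 for Cxcl9, which was background. Falls as large as those in Kupffer cells could not be seen from there. For these genes the tests cannot tell a differing response from the difference between the controls. With HGF 2 of 7 members passed, against 15.2% of all genes, with Ito cells 2 of 7 against 8.75%, and with CD146 cells 4 of 7 against 18.2%. For Ccl5 the difference of responses was -8.96 ± 0.76 with HGF, -10.57 ± 0.76 with Ito cells and -9.90 ± 0.76 with CD146 cells. Monocytic Ccl5 was background with HGF and with Ito cells. For Cxcl9 it was -4.96 ± 0.35, -4.60 ± 0.35 and -5.63 ± 0.35, where 3 of the 4 groups were background each time. With CD146 cells Ccl4 (3.29 ± 0.66, adjusted p = 0.000164) had a higher and Ccl6 (-3.55 ± 0.55, adjusted p = 2.42e-06) a lower response in Kupffer cells. With Ito cells Ccl4 (1.94 ± 0.66, adjusted p = 0.0566) and Ccl6 (1.63 ± 0.55, adjusted p = 0.0545) missed the threshold, and both passed without Kupffer control replicate 1 (adjusted p of 0.0303 and 0.0228), Ccl4 also without monocytic control replicate 1 (adjusted p = 0.0479). Without monocytic control replicate 3, the response of Ccl9 was lower in Kupffer cells with HGF (-1.23, adjusted p = 0.000785) and with Ito cells (-1.02, adjusted p = 0.00791), against -0.41 ± 0.44 and -0.21 ± 0.44 with all arrays. With HGF, Cxcl10 (2.12 ± 0.86) passed without Kupffer HGF replicate 2 (adjusted p = 0.0235) and Ccl3 (-0.98 ± 0.53) without monocytic HGF replicate 3 (adjusted p = 0.0399).

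The 2 added cell types were also set against each other, on arrays used in the comparisons above. At day 1, Kupffer cells kept with Ito cells had more of 6 of 7 chemokines than those kept with CD146 cells, all but Ccl5, against 27.4% of all genes (median -0.27). Relative to it the differences were 6.10 ± 0.39 for Ccl6, 5.09 ± 0.25 for Cxcl9, 4.70 ± 0.46 for Ccl4, 4.49 ± 0.61 for Cxcl10 and 4.17 ± 0.37 for Ccl3. That of Cxcl9, background with CD146 cells, is at least 3.31 before the median is taken off, and Ccl3 and Ccl9 were near the top of the scale with Ito cells. The difference of Ccl9 (1.18 ± 0.31, adjusted p = 0.0268) was lost without any 1 of the 6 arrays (adjusted p of 0.0515 to 0.0692). B cell genes averaged 6.82 to 7.10 with Ito and 4.85 to 5.03 with CD146 cells, monocyte genes 8.98 to 8.99 and 10.34 to 10.50, and Kupffer cell genes 5.92 to 6.19 and 7.22 to 7.51, and their part was not tested. In monocytic cells 5 of 7 passed, against 19.8% (median -0.30): Ccl6 (5.37 ± 0.39), Ccl3 (3.65 ± 0.37), Ccl4 (3.50 ± 0.46) and Ccl9 (1.53 ± 0.31) were higher with Ito cells and Ccl5 (-1.72 ± 0.54, adjusted p = 0.00683) lower. The Ccl9 call was lost after quantile normalization (adjusted p = 0.0793).

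At day 3, 2 of 7 members differed between Ito and CD146 cells in each labelled cell. In Kupffer cells, against 3.08% of all genes, Ccl6 was higher with Ito cells by 4.93 ± 0.39 (adjusted p = 3.24e-12) and Cxcl10 lower (difference -3.69 ± 0.61, adjusted p = 6.95e-05), both without overlap. In monocytic cells, against 11.3%, Ccl4 was higher by 2.07 ± 0.46 (adjusted p = 0.00154). Cxcl9 (-0.82 ± 0.25) passed between background values and was lost without any 1 of 4 arrays: CD146 replicate 2 or 3, or Ito replicate 1 or 2 (adjusted p of 0.051 to 0.132).

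Over the 16 group means, Ccl3 had the closest likeness to other members. Pearson correlations, which describe groups that share cells and controls, were 0.84 for Ccl3 and Ccl9, 0.82 for Ccl3 and Ccl4 and 0.72 for Ccl3 and Ccl6. Ccl5, which shares their stretch of chromosome 11, had -0.54 with Ccl4 and -0.15 with Ccl3, and by ranks (Spearman's rho) -0.15 and -0.04. Its correlation with Cxcl9 was 0.72, and by ranks 0.16. Cxcl9 and Cxcl10 had 0.54, and by ranks 0.45.

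**Figure D3:**
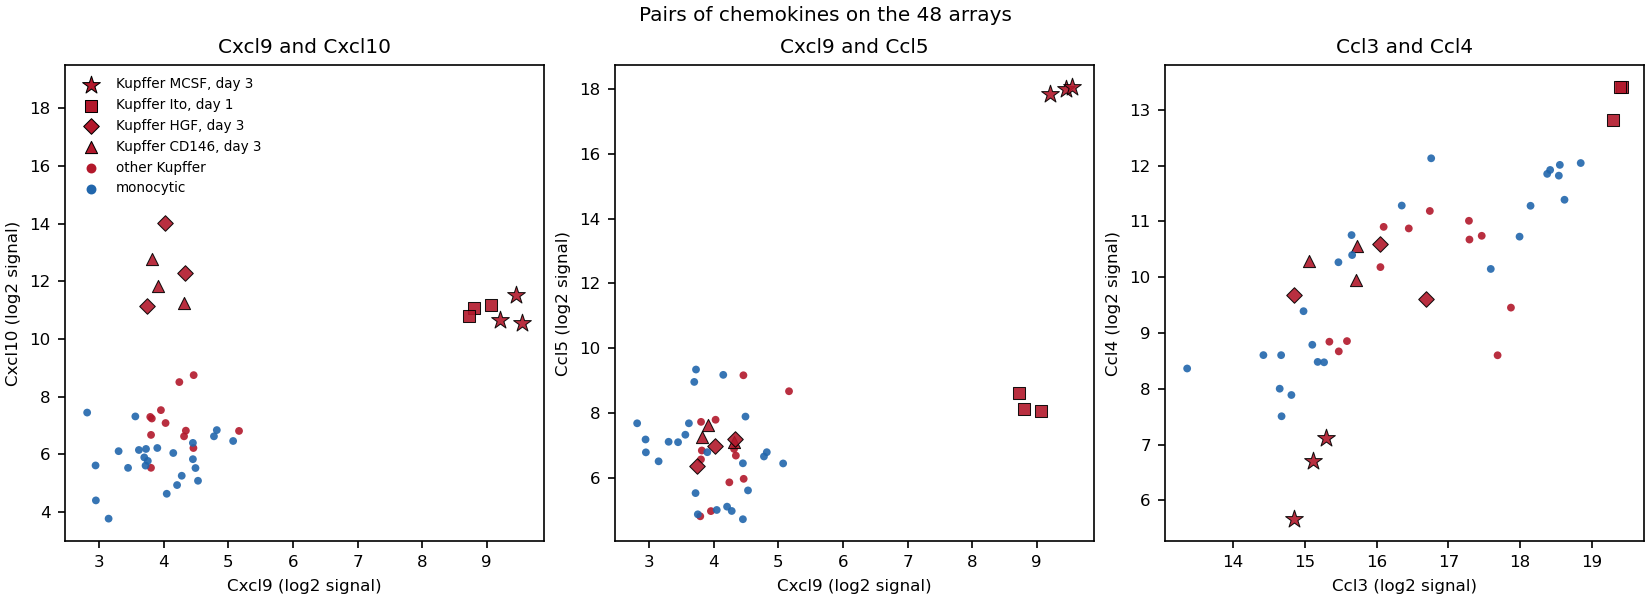
Log2 signals of 2 chemokines against each other on the 48 arrays, for Cxcl9 and Cxcl10, Cxcl9 and Ccl5, and Ccl3 and Ccl4 (both axes in log2 signal), with 4 Kupffer groups marked. Kupffer HGF and CD146 at day 3 have high Cxcl10 at background Cxcl9, Kupffer MCSF day 3 alone has high Ccl5, and Ccl4 there lies lowest although Ccl3 does not.

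Among 10726 genes above background in at least 1 group, those whose 16 group means were most like each member's were as follows, with Pearson's r. For Cxcl9 they were Iigp1 (0.865), Gm4841 (0.852) and H2-T10 (0.835), of which Iigp1 is an interferon-induced GTPase, and for Cxcl10 Isg20 (0.907), Ifit1bl1 (0.9) and Tnc (0.869), of which Isg20 is an interferon-induced exonuclease. For Ccl5 they were Susd2 (0.941), Siglece (0.94) and Il23r (0.939), of which Siglece is an inhibitory receptor of myeloid cells and Il23r a subunit of the receptor of interleukin 23. By ranks these were 0.415, 0.597 and 0.624, and H2-T10 had 0.374 with Cxcl9. Of the 16 means of Ccl5, 1 stands far above the rest, that of the Kupffer control of day 3. For Ccl3 they were Ltb4r1 (0.942), Snx6 (0.915) and Aqp9 (0.915), of which Ltb4r1 is a receptor of leukotriene B4. For Ccl4 they were Klf6 (0.918), Eps8 (0.891) and Mapre1 (0.849). For Ccl6 they were Cd53 (0.958), Tpt1 (0.868) and Cd300lf (0.832), and for Ccl9 Pvr (0.938), Cxcl5 (0.92) and Pgk1 (0.914), of which Cxcl5 is a chemokine that attracts neutrophils.

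Of 7 receptor and scavenger genes measured, 5 passed between the days of the Kupffer control (1 higher and 4 lower, against 31.8% of all genes) and 5 between Ito cells and MCSF at day 1 (1 higher and 4 lower, against 23.5%, with 3 passing after either rescaling). Ccr1, the receptor of Ccl3, Ccl5, Ccl6 and Ccl9, was 13.21 in the Kupffer control of day 1, 16.17 with Ito cells (3.20 ± 0.66 relative to the median, adjusted p = 0.00109) and 9.96 in the control of day 3 (-3.40 ± 0.66, adjusted p = 0.000144). At day 3 it was higher with Ito cells, by 2.48 ± 0.66 (adjusted p = 0.00228). Ccrl2, a non-signalling chemokine receptor, rose by 5.72 ± 0.67 with time in the Kupffer control and was lower with HGF, Ito and CD146 cells at day 3, with differences of -5.99, -5.85 and -6.33 (SE 0.67 each). Cxcr3 was 6.54 in the Kupffer control of day 3 and passed with CD146 cells (1.16 ± 0.33, adjusted p = 0.00618), though not without control replicate 1 (adjusted p = 0.0754). Dpp4, a protease that trims Cxcl9 and Cxcl10, was lower with Ito cells at day 1 (-2.05 ± 0.33, adjusted p = 2.09e-06), and fell by 3.52 ± 0.33 with time in the control.

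Of 17 genes of interferon signalling measured, 10 rose and 1 fell in the Kupffer control from day 1 to day 3 (against 31.8% of all genes that passed; list median 1.43 relative to that of all genes), and 7 were higher and 1 lower than in monocytic cells at day 3 (0.78, against 12.1%). At day 1, 0 were higher and 6 lower than in monocytic cells (-0.49, against 21.3%). With the additions at day 3, 13 were lower with HGF (-1.51), 13 with Ito cells (-1.56) and 12 with CD146 cells (-1.28), and 0, 1 and 1 higher, against 27.6%, 26.8% and 26.4% of all genes. Jak2, a kinase of the interferon gamma receptor, was 14.58 in the Kupffer control of day 3 and 10.29, 9.82 and 10.13 with HGF, Ito and CD146 cells. Irf7, an interferon-induced factor that drives more interferon, was 15.64 in the control, with differences of -3.64 ± 0.51, -2.74 ± 0.51 and -2.90 ± 0.51 for the additions, and 8.87 in the monocytic control (6.76 ± 0.51, adjusted p = 1.45e-13). Irf1, a factor that acts on the Cxcl9 and Cxcl10 genes, rose with time by 2.74 ± 0.47 and fell with Ito cells (-3.42 ± 0.47) and CD146 cells (-2.42 ± 0.47). With HGF its call (-1.38 ± 0.47, adjusted p = 0.0245) was lost without control replicate 2 or 3 or HGF replicate 2 or 3 (adjusted p of 0.0777 to 0.269). The part of the marker lists that moved in these comparisons was not tested. The mean of Ifnb1 was background in all 16 groups and that of Ifng in 15.

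With Ito cells at day 1, 4 of 17 interferon genes rose and 0 fell (list median 0.73), and 10 passed after median centring. The share of 4 of 17 equals the 23.5% of all genes that passed in either direction. Of those, 1067 were higher and 3517 lower, a split that moved with rescaling. Ifng, the gene of interferon gamma, was above background here, with a mean of 6.28 against 3.95 in the control, which was background (2.57 ± 0.34 relative to the median, adjusted p = 2.11e-06, at least 0.76 before it). T and NK cells are known makers of Ifng, and the part of such cells was not tested. Socs1, an inhibitor induced by interferon, rose by 2.96 ± 0.50 (adjusted p = 9.91e-05) and Tyk2, a kinase of the type I receptor, by 1.25 ± 0.28 (adjusted p = 0.00857). Irf1 (0.55 ± 0.47) and Irf7 (1.34 ± 0.51, adjusted p = 0.115) did not pass, though Irf7 did after median centring (adjusted p = 0.032). The call of Ifnar2, a chain of the type I receptor, was lost without control replicate 1 (adjusted p = 0.277).

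Of 17 genes of NF-kB and pattern receptor signalling measured, 10 rose and 0 fell with time in the Kupffer control (list median 0.87, against 31.8% of all genes), and 9 were higher and 0 lower than in monocytic cells at day 3 (1.18, against 12.1%). At day 1, 0 were higher and 3 lower than in monocytic cells (-0.18, against 21.3%). At day 3, 8 were lower with HGF (-0.80), 10 with Ito cells (-1.34) and 8 with CD146 cells (-0.72), and 0, 2 and 0 higher, against 27.6%, 26.8% and 26.4%. Tlr2, a receptor of bacterial lipoproteins, had 16.88 in the control and 12.26, 10.65 and 12.14 with HGF, Ito and CD146 cells. Nfkb2, a subunit of NF-kB, had 9.72 and 6.65, 5.22 and 5.95, of which the level with Ito cells was background. Tnf, which signals to NF-kB, did not pass, at 11.81 in the control and with differences of 2.07 ± 0.87, 0.65 ± 0.87 and 2.20 ± 0.87 for HGF, Ito and CD146 cells (adjusted p = 0.0716 with HGF and 0.0558 with CD146 cells). With CD146 cells it was higher after quantile normalization (adjusted p = 0.0414) and without any 1 of 3 arrays, control replicate 1 or CD146 replicate 1 or 3, and with HGF without HGF replicate 2 or 3 (adjusted p of 0.0218 and 0.0374). Nfkbia, the inhibitor that NF-kB induces, fell with Ito cells (-2.11 ± 0.54, adjusted p = 0.0039), and its calls were lost without any 1 of 3 arrays both with HGF (control replicate 1, HGF replicate 2 or 3, adjusted p of 0.227 to 0.349) and with CD146 cells (control replicate 1, CD146 replicate 1 or 3, adjusted p of 0.141 to 0.184). With Ito cells at day 1, 3 of 17 passed, against 23.5%: Cd14 (2.19 ± 0.40), Tlr2 (2.07 ± 0.40) and Tlr4 (1.63 ± 0.43) rose, of which Tlr4 was lost without control replicate 1 (adjusted p = 0.472) or Ito replicate 2. Nfkb1 was not analysed here.

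**Figure D4:**
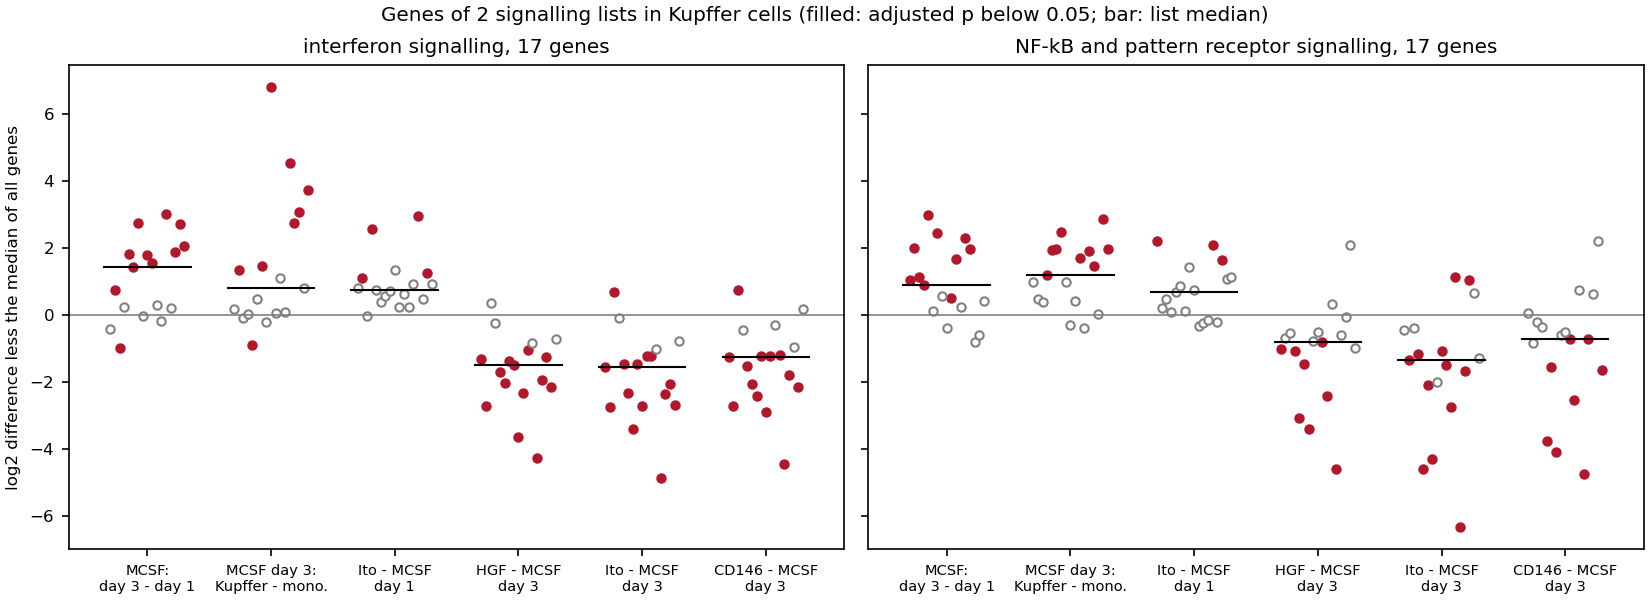
Log2 difference, less the median of all genes (vertical axis), of each gene of interferon signalling and of NF-kB and pattern receptor signalling in 6 comparisons of Kupffer cells (horizontal axis); filled points passed, and bars are list medians. The list medians of interferon signalling lie at 1.43 for day 3 against day 1 in MCSF and between -1.56 and -1.28 for the 3 additions at day 3.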

How the data were processed

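RNA of 48 samples was measured on Affymetrix mouse arrays, and the authors deposited 1 table of log2 signals made by RMA in Transcriptome Analysis Console, per the submitters' processing notes. RMA subtracts background and equalizes the arrays. Whether it was run on all arrays together, and the version, are not given in the sources used here. Of 28846 probe sets, 6640 controls were left out of the tests, and 19572 with 1 gene symbol gave 19505 genes; the probe set with the highest mean stood for a gene with several. The log2 values were used as deposited. limma 3.58.1 (R 4.3.3), checked on simulated data, fitted 1 mean per group over all arrays with eBayes, and two-sided p-values were Benjamini-Hochberg adjusted over all genes in each of 26 comparisons. Adjusted p-values are from that fit, except where an alternative is named, such as an array left out, and then they are from its refit. Bounds set a group under its negative controls at their level. For each gene list and comparison, at most 4 genes with the smallest adjusted p were open to naming, plus Cxcr3, Ccr1, Irf1, Irf7, Ifnb1, Ifng, Tnf and Nfkbia, and genes with the most similar group means were ranked by Pearson's r. Alternatives were quantile normalization, median centring, no dim genes, another variance model, array weights, a replicate block, only the arrays compared, and arrays left out. Members, lists and the 3 arrays left out together were chosen with earlier results of these data known. Each group has 3 arrays, which limits the precision. Replicate numbers did not pair the arrays, and no arrays of a group were identical.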

Additional observations from a re-analysis of the deposited data

Results flagged for a closer look

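The responses of Kupffer and monocytic cells to the same addition differed in 12 tests, which is what marks the results here. All values in these paragraphs are before any median is taken off. With Ito cells at day 1 the Kupffer response was higher: Cxcl9 by 4.86 (4.39 in Kupffer and -0.46 in monocytic cells), Cxcl10 by 5.05 (4.24 and -0.81), Ccl3 by 2.31 (2.49 and 0.18) and Ccl4 by 2.47 (2.59 and 0.12). The monocytic control of Ccl3, at 18.35, was too near the top of the scale for a rise of the Kupffer size. At day 3 the Kupffer response of Cxcl9 was lower, with differences of -4.96 with HGF, -4.60 with Ito cells and -5.63 with CD146 cells. In all 4 tests of Cxcl9, 3 of the 4 groups were background.

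For Ccl5 at day 3 the difference was -8.96 with HGF (-11.10 in Kupffer and -2.14 in monocytic cells), -10.57 with Ito cells (-12.35 and -1.78) and -9.90 with CD146 cells (-10.62 and -0.72). These tests share both controls, and the Kupffer control alone holds high Ccl5. The monocytic control, at 7.01 for Ccl5 and background for Cxcl9, left no room for falls as large as those in Kupffer cells. With CD146 cells at day 3 the Ccl4 difference was 3.29 (3.77 in Kupffer and 0.48 in monocytic cells). That of Ccl6 was -3.55, where Ccl6 fell by 2.11 in Kupffer cells and rose by 1.44 in monocytic cells, the latter a call lost without any 1 of the 6 arrays.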

How the results depend on the processing

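Of 182 member results, 87 passed, 65 of them under every alternative, and none that passed changed direction. After quantile normalization 7 were lost and 5 gained, after median centring 4 and 1, without the dimmest genes 0 and 4, with trend and robust variance 0 and 1, with array weights 1 and 31, and with only the arrays compared 12 and 13. Without the 3 arrays that stand apart, 3 of 112 were lost and 12 gained. Arrays with equal replicate numbers did not deviate together (mean correlation -0.0103 against 0.0055 for different numbers, and 1 of 120 pairs of groups over 0.1 throughout). The replicate block changed 1 call, Ccl5 with CD146 cells in monocytic cells at day 1 (adjusted p = 0.045). A mean of probe sets was not run, since each member has 1.

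Counts of members that passed moved by over 1.5 times as follows, with the cause not tested. For Kupffer cells at day 1, the count of 3 with CD146 cells was 6 with array weights or without the 3 arrays, and 1 to 4 with single arrays left out. The count of 1 with HGF was 0 after quantile normalization or with only the arrays compared, 4 with weights, 2 without the 3 arrays, and 1 to 3 with single arrays left out. At day 3, HGF gave 7 with weights, and Ito against CD146 cells 4 with weights and 5 with only the arrays compared. For monocytic cells at day 1, CD146 cells gave 5 with weights or only the arrays compared. HGF gave 0 after quantile normalization or centring, 3 with weights, 2 with only the arrays compared, and 0 to 1 with single arrays left out. At day 3, CD146 cells gave 0 after centring, 2 with weights or without the 3 arrays, and 0 to 1 with single arrays left out. HGF gave 2 and Ito cells 3 with only the arrays compared, Ito cells 2 to 4 with single arrays left out. Ito against CD146 cells gave 5 with weights or only the arrays compared, and 1 to 2 with single arrays left out. The controls of day 1 gave 1 after quantile normalization, 0 with only the arrays compared, and 1 to 3 with single arrays left out. For differences of responses, CD146 cells at day 1 gave 3 with weights, 1 without the 3 arrays, and 0 to 1 with single arrays left out; HGF at day 1 gave 2, 1, and 0 to 1. HGF at day 3 gave 4 without the 3 arrays. Ito cells at day 3 gave 4 after quantile normalization, without the dimmest genes, with weights, with only the arrays compared or without the 3 arrays, and 2 to 4 with single arrays left out. With Ito cells in Kupffer cells at day 1, 10 interferon genes passed after centring, and 3 receptors after centring or quantile normalization.

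Counts over all genes moved by over 1.5 times in 80 of 390 refits, in 21 of 26 comparisons. Rescaling moved the share of higher calls by over 10 points in 16 comparisons, and most with HGF in monocytic cells at day 1, from 43 higher and 7264 lower to 223 and 212 after quantile normalization and 357 and 276 after centring. With Ito cells in Kupffer cells at day 1, 1067 higher and 3517 lower became 1611 and 1558, and 3064 and 1010. Levels under the negative controls (Cxcl9 in 14 groups) give bounds only, and those near 19.93 (Ccl9 and Ccl3 at day 1) may hide differences.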
